A study of Mus musculus with 9 samples.

Results

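The TREM receptors Trem1, Trem2, Trem3, Treml2 and Treml4, the adaptor Tyrobp and the inhibitory receptor Siglece were followed in neutrophils sorted from mouse lung. They were taken by gene symbol, and all 7 genes were found among the 22064 genes listed. TREM receptors are cell surface proteins of myeloid cells. Trem1, Trem2 and Trem3 have short tails without signaling motifs and pair with Tyrobp (DAP12), whose immunoreceptor tyrosine-based activation motif (ITAM) recruits the kinase Syk. Siglece binds sialic acids and carries inhibitory motifs that recruit tyrosine phosphatases such as SHP-1, encoded by Ptpn6. Trem1 is known for amplifying inflammatory responses of neutrophils and monocytes.

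RNA-seq was done on 9 libraries from female BALB/c mice, in 3 groups of 3. Ly6Ghi and Ly6Glow were neutrophils with high and low surface Ly6g, sorted from lungs at the macrometastatic (MACRO) stage after 4T1-LM3 cells, a lung-selected line of the 4T1 mammary carcinoma, had been placed orthotopically in the fat pad. NL was made of Ly6Ghigh neutrophils from lung, with no tumor cell injection named in the labels and called normal lung in the study's methods. The study's methods describe sorting of CD45+ cells by Ly6g and young adult animals, and the labels do not say whether a replicate is 1 mouse or a pool. The p-values therefore measure the spread between these libraries, which may be partly technical. The libraries held between 15267177 and 17841807 estimated counts. All 7 genes passed the filter on low counts, which left 14108 genes tested.

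The labelled cell type was checked first. The neutrophil markers (Ly6g, S100a8, S100a9, Cxcr2, Csf3r, Retnlg, Mmp8 and Mmp9) were present in every library. Levels are given as CPM, the TMM-scaled share of a library's counts, which compares libraries, or as FPKM, the deposited length-normalized value, which also compares genes. The 8 neutrophil markers summed to 68955 ± 932 CPM in Ly6Ghi, 74542 ± 1000 CPM in Ly6Glow and 17455 ± 147 CPM in NL (SD, n = 3). S100a9 was the most abundant of them in CPM. In Ly6Glow against Ly6Ghi 4 of the 8 rose, beside 9.29% of all tested genes. Csf3r and Retnlg were both at 0.89 ± 0.03 on the log2 scale, Mmp8 at 0.70 ± 0.03 and Cxcr2 at 0.66 ± 0.03. Mmp8 and Cxcr2 lost their calls in limma on log2(FPKM + 1), at 0.47 and 0.42, where 2.27% of all tested genes rose. The median of the 8 was 0.45 in edgeR, beside -0.04 over all tested genes, and 0.21 in FPKM, beside -0.13. The NL libraries therefore held less RNA of neutrophil markers than either tumor-bearing group. They also held more RNA of other lung cells. The 7 endothelial and fibroblast markers summed to 1081 ± 34.1 CPM in NL, with Pecam1 the most abundant, against 139 ± 4.39 CPM in Ly6Ghi and 166 ± 4.82 CPM in Ly6Glow. The 6 epithelial and tumor cell markers, led by the surfactant gene Sftpc, summed to 917 ± 54.7 CPM in NL, 82.3 ± 1.96 CPM in Ly6Ghi and 88.7 ± 2.50 CPM in Ly6Glow. No marker of these 3 lists was at 0 in any library. The study's methods describe a CD45+ sort, and its purity was not given in the sources used here. The part of cell composition in the comparisons with NL was not tested, and in bulk RNA fewer cells of a type cannot be told apart from less RNA per cell.

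The order of the sorted tumor-bearing groups in Ly6g RNA depended on the scale. Its level was 374 ± 10.8 CPM in Ly6Ghi and 394 ± 9.32 CPM in Ly6Glow, and 119 ± 1.40 CPM in NL. The log2 difference of Ly6Glow from Ly6Ghi was 0.076 with an SE of 0.033 (edgeR adjusted p = 0.0577), and -0.16 in limma on log2(FPKM + 1). In FPKM, Ly6g was 409 ± 11.4 in Ly6Ghi, 366 ± 7.92 in Ly6Glow and 180.3 ± 3.02 in NL, with every Ly6Ghi library above every Ly6Glow library. The early granule genes, which are transcribed by immature neutrophils, differed more between the 2 groups. These 9 genes summed to 34684 ± 383 CPM in Ly6Ghi, 12901 ± 267 CPM in Ly6Glow and 5537 ± 161 CPM in NL, with Ngp the most abundant. Of the 9, 8 fell in Ly6Glow against Ly6Ghi, beside 15.9% of all tested genes, and 9 in FPKM, beside 13.6%. By nuclear shape, the study describes the Ly6g-low neutrophils as the relatively immature ones. It also reports more Cxcr2 in Ly6g-high neutrophils, by single-cell RNA and by flow cytometry. The maturity of the sorted groups was not tested here.

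**Figure D1:**
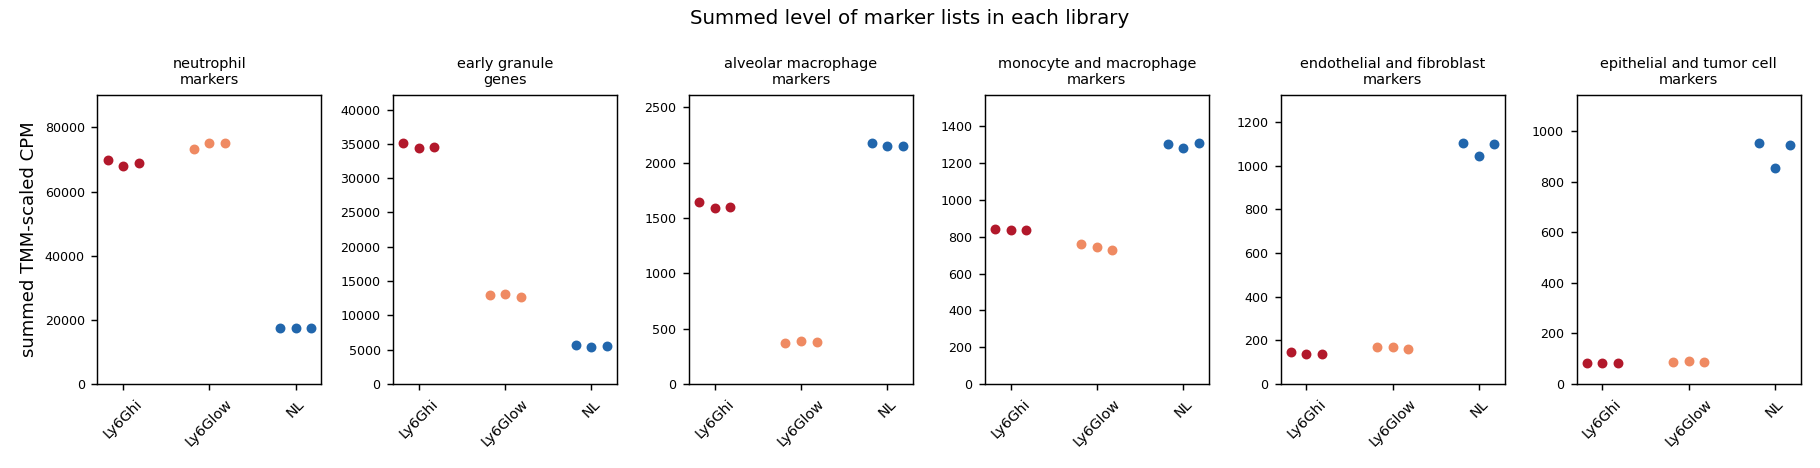
Summed TMM-scaled CPM of 6 marker lists (y axes, each from 0) in the 9 libraries, by group (x axis); each point is 1 library. Neutrophil marker RNA is lowest in NL, at 17455 CPM on average, where endothelial, fibroblast and epithelial markers are highest.

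Trem1 was measured at 1413, 1408 and 1415 CPM in the Ly6Ghi libraries, 2946, 2901 and 2883 CPM in the Ly6Glow libraries, and 2213, 2240 and 2245 CPM in the NL libraries. The 3 groups did not overlap, with Ly6Ghi lowest and Ly6Glow highest on this scale. On the FPKM scale the upper 2 groups changed places: Trem1 was 452 ± 1.63 FPKM in Ly6Ghi, 789 ± 9.37 FPKM in Ly6Glow and 985 ± 16.3 FPKM in NL (SD, n = 3). That Ly6Ghi was lowest did not depend on the scale, whereas the order of Ly6Glow and NL did. Among the 18325 genes with values, Trem1 ranked between 141 and 144 by FPKM in Ly6Ghi, between 76 and 78 in Ly6Glow and between 35 and 41 in NL.

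Tyrobp, the shared adaptor, was 568, 530 and 538 CPM in Ly6Ghi, 727, 741 and 718 CPM in Ly6Glow, and 306, 271 and 289 CPM in NL. Every Ly6Glow library was above every Ly6Ghi library, and these were above every NL library. The same order held on the FPKM scale, with 983 ± 32.8 FPKM in Ly6Ghi, 1115 ± 14.7 FPKM in Ly6Glow and 718 ± 35.8 FPKM in NL. Per length, Tyrobp stood between ranks 53 and 60 of all genes in all 9 libraries.

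Siglece was 462, 473 and 473 CPM in Ly6Ghi, 629, 620 and 592 CPM in Ly6Glow, and 119, 114 and 122 CPM in NL. The low level in NL set that group apart from both others. In FPKM it was 211 ± 4.90 in Ly6Ghi, 230 ± 10.4 in Ly6Glow and 70.9 ± 3.64 in NL.

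Treml2, a receptor of the same cluster whose ligand is less settled, was 323, 317 and 327 CPM in Ly6Ghi, 273, 269 and 268 CPM in Ly6Glow, and 79.5, 79.4 and 83.7 CPM in NL. It was highest in Ly6Ghi, unlike Tyrobp and Siglece, and was 67.9 ± 0.985, 48.2 ± 0.488 and 23.6 ± 0.659 FPKM in the same order. Trem3, a Tyrobp-coupled receptor of mouse myeloid cells, was 150.2, 150.9 and 152 CPM in Ly6Ghi, 149.9, 144 and 136 CPM in Ly6Glow, and 74.2, 72.0 and 76.7 CPM in NL. The Ly6Ghi and Ly6Glow values of Trem3 lay side by side in CPM, and NL was lower than both. In FPKM they lay apart, at 147 ± 1.19 in Ly6Ghi and 119 ± 6.09 in Ly6Glow, and Ly6Glow was nearer to the 99.9 ± 2.49 FPKM of NL.

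Treml4, a receptor known for binding dying cells, was 23.6, 24.1 and 26.1 CPM in Ly6Ghi, 46.0, 46.1 and 48.8 CPM in Ly6Glow, and 29.4, 26.6 and 27.6 CPM in NL. Ly6Glow was highest in CPM. In FPKM its 21.9 ± 0.843 in Ly6Glow and 21.4 ± 0.868 in NL overlapped, and Ly6Ghi was lower at 13.6 ± 0.773.

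Trem2, a lipid-sensing receptor of macrophages and microglia, had the lowest FPKM of the 7 genes in every library. It had 85.0, 65.0 and 72 estimated counts in Ly6Ghi, 28, 25 and 26 in Ly6Glow, and 230.4, 183 and 277 in NL. These correspond to 4.51 ± 0.697, 2.05 ± 0.204 and 10.4 ± 2.07 CPM. The NL libraries were highest and the Ly6Glow libraries lowest, with no overlap. With so few counts its standard errors were the widest of the 7 genes.

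**Figure D2:**
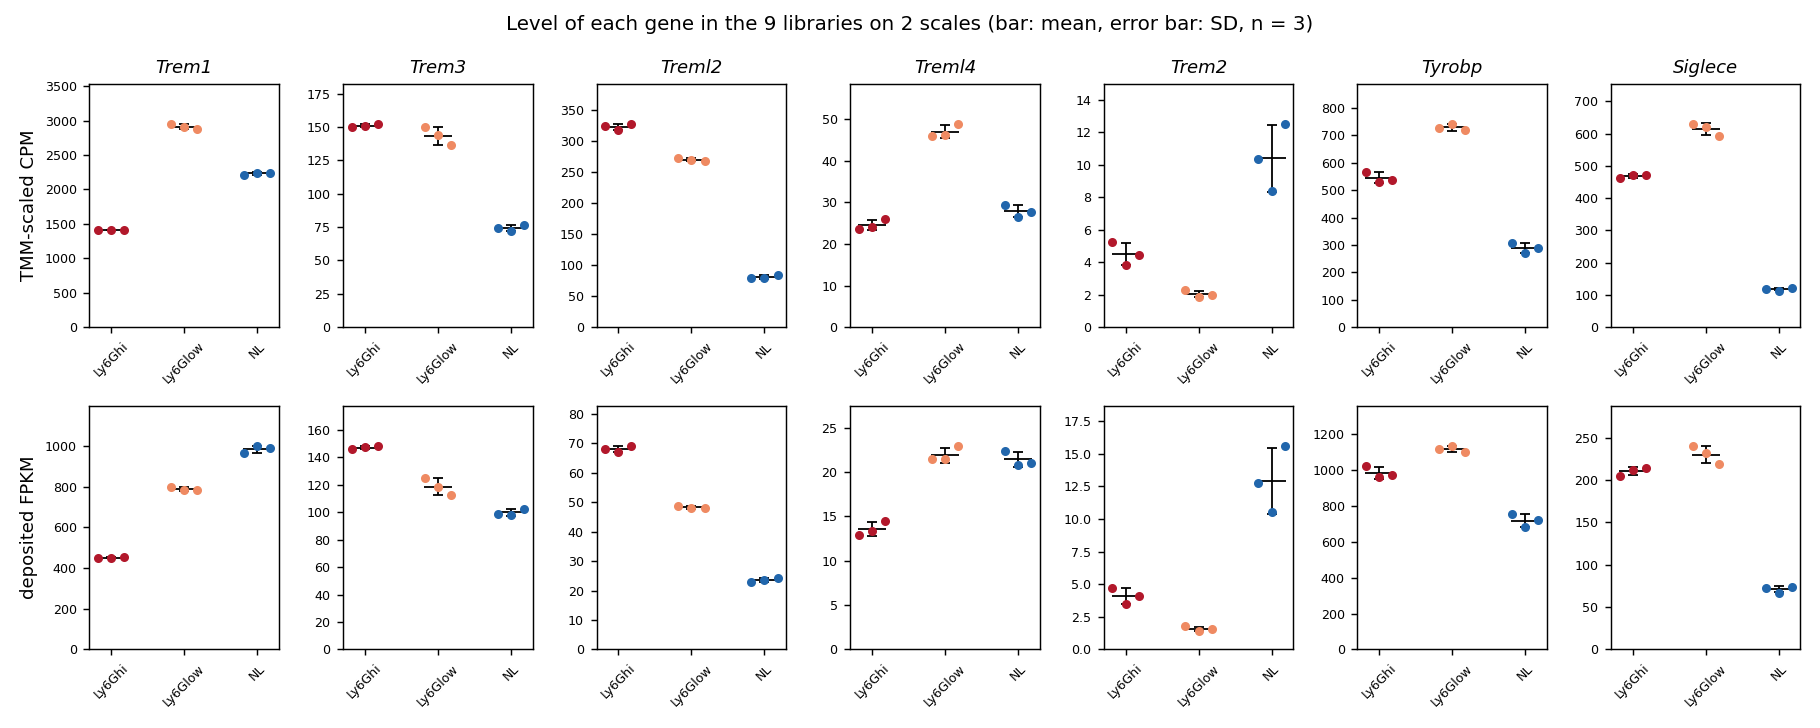
Level of the 7 genes in each library as TMM-scaled CPM (upper row) and as deposited FPKM (lower row), by group (x axes), with the mean and SD of 3 libraries. Trem1 and Trem2 stand apart from Siglece, Treml2, Trem3 and Tyrobp, whose NL values are the lowest, and Trem1 in Ly6Glow lies above NL in CPM and below it in FPKM.

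The first comparison asked how the 2 neutrophil subsets of the metastatic lung differ. Trem1 and Treml4 were higher in Ly6Glow than in Ly6Ghi, and Trem2 was lower. Trem1 rose 2.06-fold, or by 1.04 ± 0.03 in log2 units (SE, edgeR adjusted p = 2.59e-18). Treml4 rose 1.91-fold, by 0.93 ± 0.06 on the log2 scale (edgeR adjusted p = 2.25e-11). Trem2 fell by 1.14 on the log2 scale, with an SE of 0.22 (edgeR adjusted p = 0.000129). To be called, a gene needed a log2 fold change beyond 0.58 in either direction together with an adjusted p no higher than 0.05. By this rule 2 of 7 genes were higher, where 9.29% of all tested genes were, and 1 was lower, where 15.9% of all tested genes were. In limma on log2(FPKM + 1) the counts were also 2 and 1, beside 2.27% and 13.6%. Of the 8 neutrophil markers 4 were higher as well, while S100a9, the most abundant in CPM, was not called, at -0.049 ± 0.025 on the log2 scale. Their part in the rise of Trem1 and Treml4 was not tested.

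The remaining 4 genes stayed inside the fold limit. Tyrobp and Siglece had log2 fold changes of 0.42 ± 0.04 and 0.39 ± 0.03, and Treml2 had -0.26 ± 0.03. Their adjusted p-values from edgeR were 5.00e-09, 2.38e-09 and 9.59e-07, so the differences were small but larger than the spread between libraries. Trem3 had a log2 fold change of -0.076 ± 0.041 and missed the p threshold (edgeR adjusted p = 0.122), whereas in limma on log2(FPKM + 1) it was at -0.31 (limma adjusted p = 2.25e-05), still inside the fold limit. All 7 genes had groups that did not overlap in CPM, as had 62.1% of all tested genes. The median log2 fold change of the 7 genes was 0.39 in edgeR, beside -0.04 over all tested genes, and 0.13 in FPKM, beside -0.13.

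The second comparison set Ly6Ghi neutrophils of the metastatic lung against those of normal lung. Siglece, Treml2, Trem3 and Tyrobp were higher in Ly6Ghi, and Trem1 and Trem2 were lower. Treml2 rose 3.98-fold (log2 fold change 1.99 ± 0.04, edgeR adjusted p = 6.23e-22). Siglece rose 3.96-fold (log2 fold change 1.99 ± 0.04, edgeR adjusted p = 9.23e-22). Trem3 and Tyrobp rose by 1.02 ± 0.04 and 0.92 ± 0.04 on the log2 scale. Trem1 fell by 0.66 on the log2 scale with an SE of 0.03 (edgeR adjusted p = 4.64e-16), and Trem2 fell by 1.21 with an SE of 0.14. Treml4 had a log2 fold change of -0.18 ± 0.06 and stayed inside the fold limit. The higher calls were 4 of 7, beside 26.3% of all tested genes, and the lower calls 2 of 7, beside 36.6%. The groups of all 7 genes did not overlap, as for 85.2% of all tested genes. The median over the 7 genes was 0.92 in edgeR, beside -0.09 over all tested genes, and 0.45 in FPKM, beside -0.32. All 8 neutrophil markers rose in the same comparison, with a larger median of 1.69 in edgeR, and 7 rose in FPKM, with a median of 1.22. Their part in the rise of the 4 genes was not tested.

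With FPKM in place of TMM-scaled counts, 3 of these calls changed. In limma on log2(FPKM + 1), Trem3 and Tyrobp had log2 fold changes of 0.56 and 0.45 and were no longer past the fold limit, while Treml4, at -0.62, was. This left 2 of 7 genes higher, beside 10.1% of all tested genes on that scale, and 3 lower, beside 36.4%. On that scale the median of all genes lay at -0.32, and relative to it Trem3 was at 0.88, Tyrobp at 0.78 and Treml4 at -0.30. With a pseudocount of 0.1 these relative values were 1.07, 0.97 and -0.14.

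The third comparison, which shares the NL libraries with the second and the Ly6Glow libraries with the first, set Ly6Glow against NL. Siglece rose 5.18-fold, the largest rise of the 7 genes (log2 fold change 2.37 ± 0.04, edgeR adjusted p = 5.05e-23). Treml2 rose by 1.74 ± 0.04, Tyrobp by 1.34 ± 0.04, Trem3 by 0.95 ± 0.04 and Treml4 by 0.75 ± 0.06 on the log2 scale. Trem2 fell by 2.34 on the log2 scale with an SE of 0.18 (edgeR adjusted p = 6.76e-11). The higher calls were 5 of 7, beside 28.7% of all tested genes, and the single lower call stood beside 40.8%. The groups did not overlap in CPM for any of the 7 genes, as for 86.8% of all tested genes. The median over the 7 genes was 0.95 in edgeR, beside -0.16 over all tested genes, and 0.24 in FPKM, beside -0.49. The neutrophil markers rose here as well, 8 of 8 in both fits, with medians of 2.09 and 1.39, and their part was again not tested.

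Trem1 had no direction in Ly6Glow against NL that held on both scales. Its log2 fold change was 0.38 ± 0.03 in edgeR with TMM and -0.32 in limma on log2(FPKM + 1), where the median of all genes was -0.49. Relative to the median of all genes it was 0.54 in the former and 0.17 in the latter. Over all settings run with the 3 libraries of each group that relative value lay between 0.17 and 0.68, and it depended on the pseudocount and the filter. Treml4 and Trem3 lost their calls in FPKM, at 0.032 and 0.24, or 0.52 and 0.73 relative to the median on that scale. In FPKM 3 of 7 genes were then higher, beside 7.97% of all tested genes, and 1 was lower, beside 45.6%. Treml4 also lost its call with upper-quartile factors, at 0.56. TMM factors ran from 0.803 in a Ly6Glow library to 1.32 in an NL library, whereas the FPKM values were not scaled by them.

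**Figure D3:**
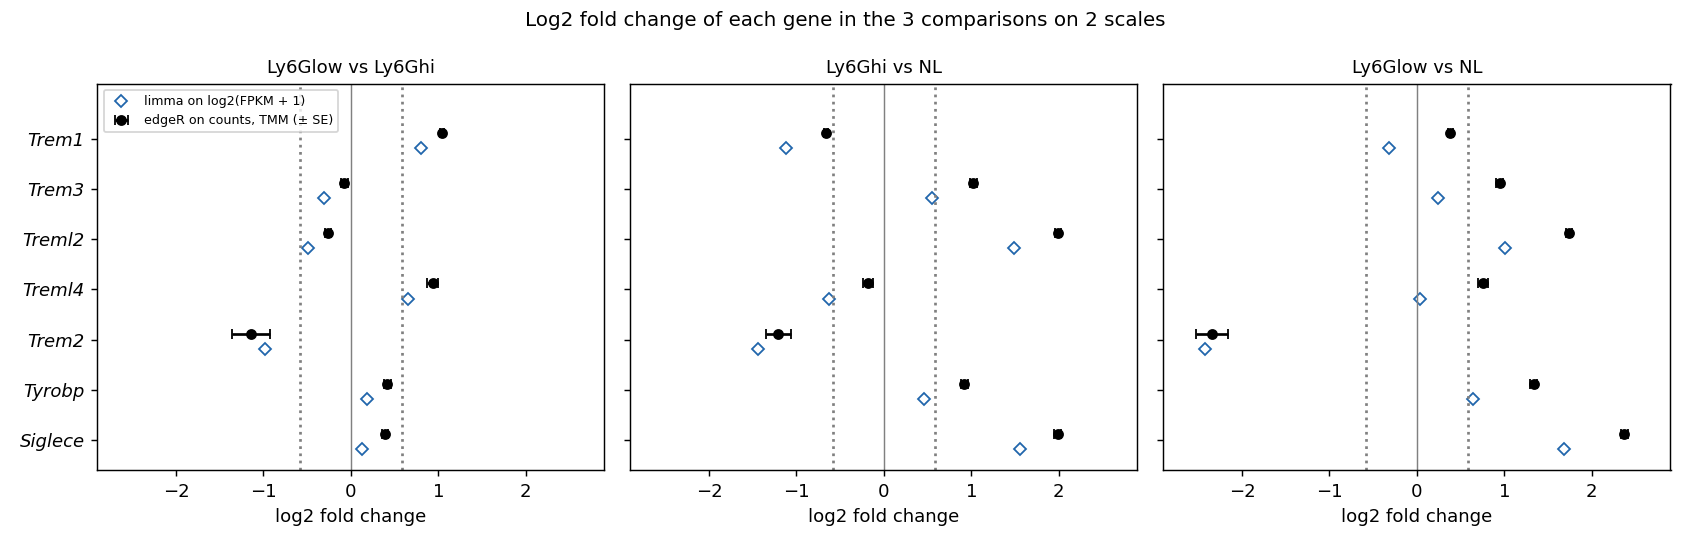
Log2 fold change (x axes) of the 7 genes in the 3 comparisons, from edgeR on TMM-scaled counts with its SE (filled) and from limma on log2(FPKM + 1) (open). Dotted lines mark the fold limit of 0.58. In Ly6Glow against NL, Trem1 lies at 0.38 on the first scale and -0.32 on the second.

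Ratios of genes within a library do not depend on how libraries are scaled to each other. They were chosen after the levels had been seen, and are given in FPKM, so per length. Trem1 over Tyrobp was 0.441, 0.471 and 0.466 in Ly6Ghi, 0.717, 0.694 and 0.711 in Ly6Glow, and 1.28, 1.47 and 1.38 in NL. Receptor RNA was thus below adaptor RNA in both tumor-bearing groups and above it in normal lung. Trem1 over Siglece, the activating over the inhibitory receptor, was 2.14 ± 0.0441 in Ly6Ghi, 3.43 ± 0.126 in Ly6Glow and 13.9 ± 0.913 in NL (SD, n = 3). Both ratios were ordered Ly6Ghi, Ly6Glow, NL with no overlap between groups. Tyrobp over Siglece did not separate the tumor-bearing groups, at 4.67 ± 0.260 in Ly6Ghi and 4.85 ± 0.189 in Ly6Glow, and was 10.1 ± 0.297 in NL. Trem1 over Trem3 was 3.07 ± 0.0183, 6.66 ± 0.271 and 9.86 ± 0.296 in the same order. Trem1 over Treml2 was 6.65 ± 0.0806, 16.4 ± 0.0342 and 41.8 ± 0.968. With 3 libraries a group the smallest two-sided p of an exact permutation test is 0.1, so no p is given for the ratios.

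**Figure D4:**
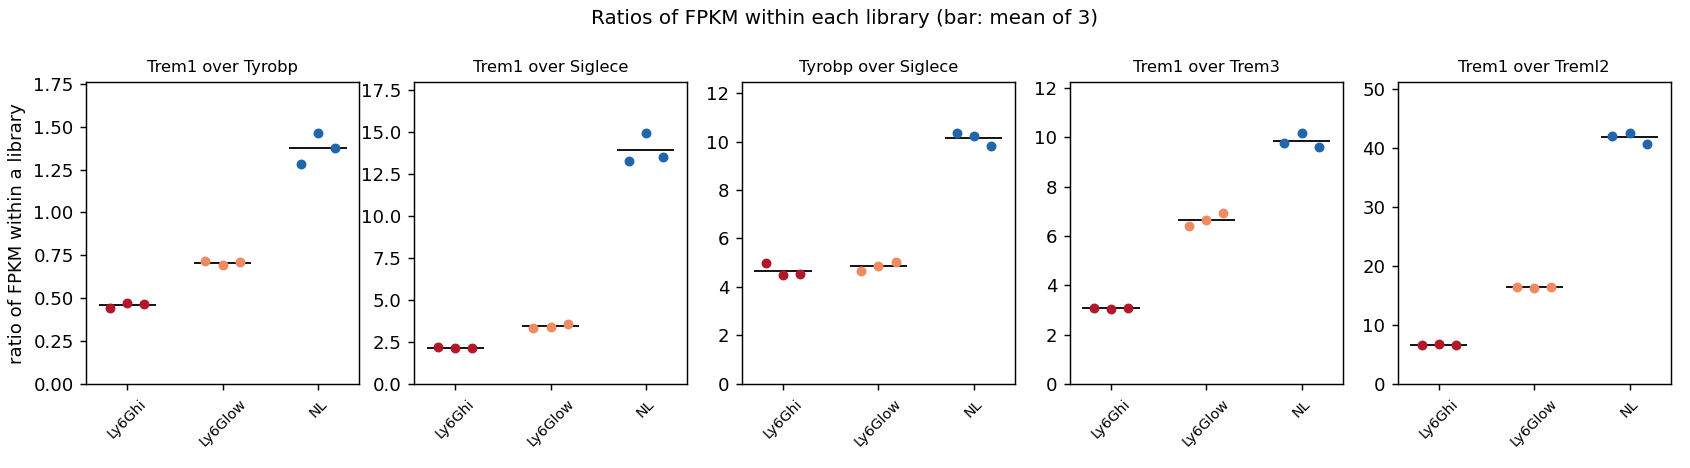
Ratios of FPKM within each library (y axes, from 0) by group (x axes); points are libraries and bars the mean of 3. The ratios with Trem1 as numerator are lowest in Ly6Ghi and highest in NL, while Tyrobp over Siglece overlaps between Ly6Ghi, at 4.67 on average, and Ly6Glow, at 4.85.

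The TREM genes lie side by side on mouse chromosome 17 (GRCm38, which is mm10): Trem1 at chr17:48232713-48246927, Trem3 at chr17:48247677-48258848, Treml4 at chr17:48264200-48275607, Treml2 at chr17:48299390-48312534 and Trem2 at chr17:48346401-48352276. Tyrobp, at chr7:30413782-30417582, and Siglece, at chr7:43648882-43672044, are on chromosome 7. The files give 3 further tested genes of the cluster under other symbols, Trem5 (9830107B12Rik), Trem4 (A530064D06Rik) and Treml6 (B430306N03Rik). Trem4, at chr17:48151896-48167257 the tested TREM gene next to Trem1, was in no list and was added after its values had been seen. It was 148 ± 0.781 CPM in Ly6Ghi, 307 ± 4.51 CPM in Ly6Glow and 206 ± 3.65 CPM in NL, the same order of groups as for Trem1. Trem4 rose in Ly6Glow against Ly6Ghi by 1.05 ± 0.03 on the log2 scale (edgeR adjusted p = 1.23e-16), and stayed called in limma on log2(FPKM + 1) at 0.80, as Trem1 did. Against NL it was at -0.48 ± 0.03 in Ly6Ghi and 0.57 ± 0.03 in Ly6Glow, inside the fold limit. In FPKM it was at -0.93 and -0.13, the first of them past the limit. Trem4 also passed the limit in Ly6Ghi against NL with upper-quartile factors, at -0.67, and in Ly6Glow against NL in DESeq2, at 0.66. Trem5, on the other side of Trem4, rose in Ly6Glow against Ly6Ghi by 0.67 ± 0.04 on the log2 scale, a call that was lost in FPKM at 0.43. Treml6, next to Treml2, rose in Ly6Ghi against NL by 1.85 ± 0.04, as Treml2 did. Trem3, between Trem1 and Treml4, was not called in Ly6Glow against Ly6Ghi, where both neighbors rose. Trem2, beyond Treml6, fell in all 3 comparisons. Treml1, a platelet receptor at the end of the cluster, did not pass the filter, with a mean of 0.0618 CPM in Ly6Ghi and 0.437 CPM in NL.

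**Figure D5:**
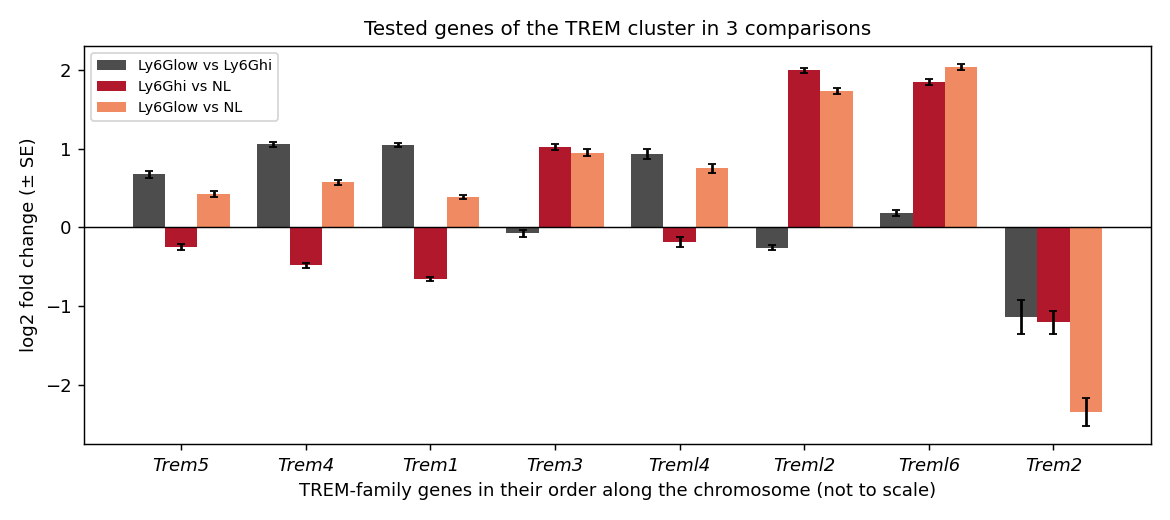
Log2 fold change with SE (y axis) of the 8 tested TREM genes in their order along the chromosome (x axis, not to scale) in the 3 comparisons. Trem1, Trem4, Trem5 and Treml4 are higher in Ly6Glow than in Ly6Ghi, Trem5 without passing the fold limit in FPKM, Treml2 and Treml6 are higher in both tumor-bearing groups than in NL, and Trem2 is lower in all 3.

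Of the 7 genes 4 had an entry in the RefSeq promoter table (GRCm38.p6). The bases before the gene are shown for Trem1 and Treml4, which rose together in Ly6Glow, and for Trem2, which fell. All 3 are on the plus strand, and capitals mark GAGGAA, a core of PU.1 sites, or TTCCTC, which is the same motif on the other strand.
Trem1, chr17:48232489-48232712: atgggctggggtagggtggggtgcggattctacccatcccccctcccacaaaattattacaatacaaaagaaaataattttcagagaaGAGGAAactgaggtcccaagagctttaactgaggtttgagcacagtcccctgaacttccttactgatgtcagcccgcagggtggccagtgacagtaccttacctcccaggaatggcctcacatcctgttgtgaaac
Treml4, chr17:48264045-48264199: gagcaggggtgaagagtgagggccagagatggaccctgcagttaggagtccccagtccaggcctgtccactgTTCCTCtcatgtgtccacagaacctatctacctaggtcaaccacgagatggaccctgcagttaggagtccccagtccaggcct
Trem2, chr17:48346151-48346400: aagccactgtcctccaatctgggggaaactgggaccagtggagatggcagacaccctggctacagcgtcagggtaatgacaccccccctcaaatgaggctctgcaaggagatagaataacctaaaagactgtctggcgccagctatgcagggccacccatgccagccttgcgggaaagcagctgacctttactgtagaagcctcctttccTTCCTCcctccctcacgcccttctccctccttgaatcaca

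Each of the 3 windows held GAGGAA 1 time on either strand. Of all 32851 promoters in the table, 20.8% held it in their first 224 bases, the length shown for Trem1, 15.1% in the first 155 bases and 23.3% in the first 250 bases. In all, 8 motifs were searched on both strands. For PU.1 they were GAGGAA and a longer form, GAGGAAG. For C/EBP they were the palindrome TTGCGCAA and the looser form TTNNGNAA. AP-1 was searched as TGACTCA, RUNX as TGTGGT, and NF-kB in a strict and a loose form. GAGGAAG, which contains GAGGAA, was found in the Trem2 window and in 10.6% of promoters at that length. TTNNGNAA was found in the Trem1 window and in 34.6% of promoters at that length. The others had no match in these windows. The motif shown and the genes shown were chosen after the values and matches had been seen, and a match describes letters only.

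Other signaling adaptors were Fcer1g and Cd247, which carry ITAMs, and Hcst (DAP10), which has no ITAM and recruits PI3K instead. Fcer1g rose by 1.23 ± 0.04 in Ly6Ghi and by 1.56 ± 0.04 in Ly6Glow against NL on the log2 scale, and Hcst rose in both as well. Cd247, the T cell receptor zeta chain, fell in both. In Ly6Glow against Ly6Ghi, Fcer1g stayed inside the fold limit at 0.33 ± 0.04, as Tyrobp did, and Hcst was at 0.55 ± 0.08 in edgeR and past the limit in DESeq2, at 0.62. For the lists that follow, the shares of all tested genes called higher in Ly6Glow against Ly6Ghi, Ly6Ghi against NL and Ly6Glow against NL were 9.29%, 26.3% and 28.7% in edgeR, and 2.27%, 10.1% and 7.97% in FPKM. The shares called lower were 15.9%, 36.6% and 40.8% in edgeR, and 13.6%, 36.4% and 45.6% in FPKM. With upper-quartile factors 19.6% and 22.6% were higher and 40.8% and 44.6% lower in the 2 comparisons with NL. Of 11 tested receptors that couple to Tyrobp besides the TREM genes, 4 rose in Ly6Glow against Ly6Ghi, and 3 in limma on log2(FPKM + 1). Sirpb1b rose most, by 1.07 ± 0.05 on the log2 scale. Cd300lb, with the highest CPM of them, rose by 0.66 ± 0.04, a call lost in FPKM at 0.41. In each comparison with NL 9 of the 11 rose and 2 fell, with Clec5a up by 1.82 ± 0.05 in Ly6Ghi and Siglech, a plasmacytoid dendritic cell receptor, down. In FPKM the risers were 3 in Ly6Ghi and 7 in Ly6Glow. The median of the 11 genes was 0.32 in Ly6Glow against Ly6Ghi, 0.87 in Ly6Ghi against NL and 1.59 in Ly6Glow against NL, beside -0.04, -0.09 and -0.16 over all tested genes. In FPKM these medians were 0.050, 0.40 and 0.85, beside -0.13, -0.32 and -0.49.

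Downstream of the ITAM, 24 kinases and adaptors were tested. Between the tumor-bearing groups 1 rose and 2 fell in Ly6Glow in edgeR, and 3 rose and 2 fell in DESeq2, where 10.7% of all tested genes rose and 12.7% fell. The riser was Syk, the kinase that binds the ITAM, at 1435 ± 9.51 CPM in Ly6Glow and 949 ± 2.39 CPM in Ly6Ghi. Its log2 fold change of 0.60 ± 0.03 lay just past the limit, and the call was lost in FPKM at 0.36, where no other gene of the list rose. In Ly6Ghi against NL 16 rose and 6 fell, and in Ly6Glow against NL 17 rose and 6 fell. The adaptor Card9 had the largest rise in both, 1.55 ± 0.05 and 1.75 ± 0.05 on the log2 scale. In FPKM 9 rose in Ly6Ghi and 6 in Ly6Glow, and 6 fell in each. The median of the 24 genes was 0.077, 0.96 and 1.15 in edgeR in the 3 comparisons, and -0.12, 0.49 and 0.45 in FPKM. Relative to the median of all tested genes these were 0.12, 1.05 and 1.31 in edgeR and 0.0099, 0.82 and 0.94 in FPKM.

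On the inhibitory side, Ptpn6, which encodes the phosphatase SHP-1, rose in both comparisons with NL, by 1.39 ± 0.04 on the log2 scale in Ly6Glow. Of the 6 phosphatases and inhibitory adaptors 3 rose in Ly6Ghi and 4 in Ly6Glow, with medians of 0.97 and 1.09. Dok2 rose by 2.16 ± 0.05 in Ly6Ghi. Dok1 fell in Ly6Glow against Ly6Ghi, and the median of the 6 was -0.13. In limma on log2(FPKM + 1) 3 of the 6 rose in each comparison with NL, with medians of 0.50 and 0.39, while 2 fell in Ly6Glow against NL and 2 in Ly6Glow against Ly6Ghi, where the median was -0.35.

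The other Siglecs differed among themselves. Cd33 rose by 1.36 ± 0.03 and 2.01 ± 0.03 on the log2 scale in Ly6Ghi and Ly6Glow against NL, as Siglece did. In Ly6Glow against Ly6Ghi Cd33 rose by 0.65 ± 0.03, a call lost in FPKM at 0.41. Siglec1, a macrophage receptor, fell in all 3 comparisons, by 4.72 on the log2 scale in Ly6Glow against NL. Of the 6 other Siglecs 1 rose and 4 fell in Ly6Glow against Ly6Ghi, 2 rose and 3 fell in Ly6Ghi against NL, and 1 rose and 3 fell in Ly6Glow against NL. In FPKM the lower calls were 4, 4 and 5 in these comparisons, with 1 higher call in each comparison with NL, and with upper-quartile factors 5 fell in Ly6Glow against NL. A list of 19 sialic acid genes held those that make and transfer sialic acid, the part of glycans that Siglecs bind, and others, such as the sialidases Neu1 and Neu3, which remove it, the acetyltransferase Casd1 and the acetylesterase Siae. Its counts are therefore not those of ligand-making genes alone. Of the 19, 3 rose and 6 fell in Ly6Glow against Ly6Ghi. The sialyltransferase St3gal6 rose most there, by 1.51 ± 0.04 on the log2 scale. Against NL 6 rose and 8 fell in Ly6Ghi, and 7 rose and 10 fell in Ly6Glow, with the largest rise at St3gal4 and the largest fall at Siae in both. The sialidases, named after their values had been seen, were among the risers. Neu3 rose in Ly6Glow against Ly6Ghi at 0.72 ± 0.17. Neu1 rose against NL, at 0.69 ± 0.04 in Ly6Ghi and 0.87 ± 0.04 in Ly6Glow. These calls were lost in FPKM at 0.24, 0.22 and 0.16. In Ly6Ghi against NL Neu3 was called lower, at -0.60, a call lost in FPKM at -0.575. With upper-quartile factors Neu1 lost its call in Ly6Ghi against NL, at 0.498. Fewer rose in FPKM, where 1, 2 and 3 of the 19 rose and 5, 9 and 10 fell in the 3 comparisons, and with upper-quartile factors 3 rose in Ly6Ghi and 4 in Ly6Glow against NL. The median of the 19 genes was -0.059, -0.20 and -0.61 in edgeR and -0.27, -0.58 and -0.79 in FPKM.

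A list of 8 genes held ligands of TREM1 and TREM2 and the proteases that shed these receptors. Pglyrp1, a peptidoglycan recognition protein that can bind TREM1, was at 920 ± 31.9 CPM in Ly6Ghi, 790.4 ± 32.3 CPM in Ly6Glow and 158 ± 10.6 CPM in NL. In Ly6Glow against Ly6Ghi 2 of the 8 rose, Clu and the sheddase Adam17, and both calls were lost in FPKM, at 0.34 and 0.45, where Lgals3 fell instead, at -0.65 beside -0.41 ± 0.04 in edgeR. In each comparison with NL 4 of the 8 rose, or 1 in FPKM, and 2 fell. With upper-quartile factors 2 rose in Ly6Ghi and 3 in Ly6Glow. Those that fell were Apoe and Clu, which can bind TREM2. The median of the 8 genes was 0.089, 0.52 and 0.56 in edgeR in the 3 comparisons. In FPKM it was -0.14, 0.057 and -0.14, on a scale where the medians of all tested genes were -0.13, -0.32 and -0.49. Relative to the median of all tested genes the list was at 0.13, 0.61 and 0.72 in edgeR and at -0.0093, 0.38 and 0.35 in FPKM, so it lay above that median in both comparisons with NL on either scale.

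The levels of Trem2 moved with those of part of the macrophage genes. The 13 alveolar macrophage markers summed to 1613 ± 27.3 CPM in Ly6Ghi, 379 ± 9.77 CPM in Ly6Glow and 2159 ± 15.1 CPM in NL, with Chil3, also a gene of immature neutrophils, the most abundant. Of the 13, 9 fell in Ly6Glow against Ly6Ghi in edgeR and 10 in FPKM. The median was -3.67 in edgeR and -1.65 in limma on log2(FPKM + 1). Both medians fell on Fabp1, named after its values had been seen, which had at most 2 counts in a Ly6Glow library, so that the size of the fall is poorly known. Chil3 was 1274 ± 23.5 CPM in Ly6Ghi, 277 ± 10.3 CPM in Ly6Glow and 964 ± 15.6 CPM in NL, so that unlike Trem2 it was not highest in NL on this scale. Krt79 was 7.33 ± 0.863 CPM in Ly6Ghi, 0.178 ± 0.172 CPM in Ly6Glow and 42.6 ± 1.91 CPM in NL. In 1 Ly6Glow library 1 of the 13 markers was at 0. Of the 12 monocyte and macrophage markers, which summed to 839 ± 1.60, 743 ± 15.8 and 1298 ± 13.9 CPM in Ly6Ghi, Ly6Glow and NL, 5 fell in Ly6Glow against Ly6Ghi, or 6 in FPKM, and the median was -0.52, or -0.59 in FPKM. Mrc1, the mannose receptor, fell most there and was 119 ± 1.98 CPM in Ly6Ghi, 28.6 ± 0.292 CPM in Ly6Glow and 428 ± 14.4 CPM in NL, the order of groups seen for Trem2. Csf1r, the most abundant over all 9 libraries though not in NL, differed from Trem2 in that Ly6Glow was above Ly6Ghi, at 217 ± 3.65 CPM in Ly6Ghi, 299 ± 9.21 CPM in Ly6Glow and 261 ± 11.7 CPM in NL. No marker of this list was at 0. Of 9 lipid-associated macrophage genes, 2 of which, Apoe and Lgals3, are also in the list of ligands, 3 fell in Ly6Glow against Ly6Ghi, or 5 in FPKM, and 1, Spp1, rose, from 83.4 ± 0.706 to 192 ± 2.33 CPM. Their sum was 1501 ± 9.42 CPM in Ly6Ghi, 1464 ± 32.2 CPM in Ly6Glow and 2736 ± 37.2 CPM in NL, with Lgals3 the most abundant in Ly6Ghi at 606 ± 16.1 CPM, Cd9 in Ly6Glow at 542 ± 3.63 CPM and Spp1 in NL at 567 ± 11.9 CPM. The part of macrophage RNA in the Trem2 result was not tested. Natural killer cells also use Tyrobp, and their 6 markers summed to at most 16.4 CPM in any library. The part of these cells in the Tyrobp values was not tested.

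Genes with the most similar pattern were sought among 7397 tested genes, or 7398 for Trem2, with a mean of at least 10 CPM. Likeness was the root mean square distance between 9 centred log2 CPM values. Those closest to Trem1 were Tpm4, Tgoln1 and Nup98, with Tpm4 at a distance of 0.0441. Efhd2, Gabarap and Psd4 were closest to Tyrobp, with Efhd2 at 0.0284. Ifitm2, Il16 and H1f2 were closest to Siglece, with Ifitm2 at 0.0531. Arrb2, Pgd and Plscr1 were closest to Treml2, with Arrb2 at 0.0474. Ube2q1, Dnmbp and Lasp1 were closest to Trem3, with Ube2q1 at 0.0299. Trim25, Cass4 and Lmnb1 were closest to Treml4, with Trim25 at 0.0514. Nomo1, Rcc2 and Idh2 were closest to Trem2, at a larger distance of 0.169 for Nomo1. No TREM gene was among the 3 closest genes of another, but Trem2, with a mean below 10 CPM, was not a candidate for the others.

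Counting limits apply to single genes. No estimated count of Trem1, Trem3, Treml2, Treml4, Tyrobp or Siglece was a whole number in any library. They are thus not plain counts of whole reads, and how they were estimated was not given in the sources used here. RefSeq places 3 other genes across Trem1, 2 across Trem3, 1 across Treml4 and 2 across Siglece. Of these only the 2 across Siglece are among the genes listed, and whether they have values was not checked. Treml2 and Tyrobp had fractional counts with no overlapping gene, so an overlap need not be what made counts fractional. Reads shared with the genes across it could make the values of Siglece uncertain.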

How the data were processed

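RNA-seq libraries were poly(A)-selected and strand-specific per the labels and were sequenced by BGI. The authors deposited an estimated count of reads per gene, not normalized, and FPKM values, normalized for transcript length and library depth. The submitters' processing notes name mm10; the aligner and counter were not given in the sources used here. Of 22064 genes 3739 were blank, and 37.9% of the counts were whole numbers.

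Groups were taken from sample titles. The description field of the NL libraries names only the Ly6Ghigh group, so that normal lung rests on the title, the treatment field and the methods of the study. Counts were rounded and tested in edgeR 4.0.16 (R 4.3.3) with TMM, filterByExpr and the quasi-likelihood F test in 1 model of 9 libraries, with Benjamini-Hochberg adjustment over 14108 genes. The steps were tested on simulated data. Replicates differed beyond sampling noise in every pair, with chi-square over degrees of freedom from 1.40 to 5.07. Alternatives were DESeq2 1.42.0, limma 3.58.1 on FPKM with pseudocounts of 1 and 0.1, other scalings and filters, a replicate block and leaving out each library.

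The members and gene lists were chosen with earlier results of these data known. Besides the 7 genes and the 3 tested genes closest to each, the text names from each list the called genes with the largest rise and fall of a comparison, the gene with the highest mean CPM (the most abundant), Ly6g, and any gene of a list of at most 8 symbols. Trem4, Neu1, Neu3, Casd1 and Fabp1 were named beyond this rule. Of 201 listed symbols 198 were matched, 2 of them through RefSeq synonyms, and 190 were tested. For these other genes, DESeq2, upper-quartile factors and limma on FPKM were added after the data had been seen, as were values relative to the median of all genes.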

Additional observations from a re-analysis of the deposited data

How the results depend on the processing

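Of 336 log2 fold changes of the 7 genes under an alternative, 316 kept their direction and their side of the threshold, and so did all 126 that left out 1 library. The exceptions rest mostly on FPKM, which lacks the TMM factors. For limma on log2(FPKM + 1), with or without a filter at FPKM 1, and on log2(FPKM + 0.1), Trem1 in Ly6Glow against NL turned to -0.32 in each. Calls were lost for Trem3 in Ly6Ghi against NL (0.56 in each) and in Ly6Glow against NL (0.24, 0.24 and 0.25), for Tyrobp in Ly6Ghi against NL (0.45, 0.45 and 0.45), and for Treml4 in Ly6Glow against NL (0.032, 0.032 and 0.033). Treml4 in Ly6Ghi against NL gained a call (-0.62, -0.62 and -0.66). Treml4 in Ly6Glow against NL also lost its call with upper-quartile factors (0.56) and with at least 10 counts in every library (0.57). In Ly6Glow against Ly6Ghi 3 genes were called, and 6 without a fold limit.

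The alternatives also moved all genes, and limma on FPKM changed the scaling, the pseudocount and the test together. The median log2 fold change of all genes in limma on log2(FPKM + 1) was -0.13, -0.32 and -0.49 in Ly6Glow against Ly6Ghi, Ly6Ghi against NL and Ly6Glow against NL, and the share of higher calls was 14.3%, 21.8% and 14.9%, beside 36.8%, 41.8% and 41.3% in edgeR with TMM. In limma on log2(FPKM + 0.1) the medians were -0.24, -0.51 and -0.81 in the same order of comparisons. With upper-quartile factors, which changed the scaling alone, the medians against NL were -0.28 and -0.35. That of Ly6Glow against Ly6Ghi was then -0.039, beside -0.041 with TMM. With the replicate block 3, 6 and 6 genes were called, as without it, and no call of the 7 genes changed, for example Trem1 at 1.04 in Ly6Glow against Ly6Ghi. Same-numbered libraries did not deviate together, with correlations from -0.0683 to 0.0766 over 9 pairs, and 1 of 9 libraries correlated best with its own number, so the numbers were not taken as pairs. Trem2, with 25 to 277 counts, is the gene most limited by depth.

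For 39 other named genes, 3 alternatives chosen after seeing the data gave 351 values, of which 298 kept direction and call, 19 turned, 22 lost and 12 gained a call. In limma on log2(FPKM + 1), those that turned in Ly6Glow against Ly6Ghi were Treml6 (B430306N03Rik, -0.049), Card9 (-0.027), Ly6g (-0.16), Neu1 (-0.055) and Siglech (-0.0024). In Ly6Ghi against NL they were Dok1 (-0.11), Syk (-0.19) and Chil3 (-0.063), and in Ly6Glow against NL Trem4 (A530064D06Rik, -0.13), Trem5 (9830107B12Rik, -0.25), Csf1r (-0.50), Lgals3 (-0.52), Neu3 (-0.33), Adam17 (-0.082) and St3gal6 (-0.11). In DESeq2, Apoe turned in Ly6Glow against Ly6Ghi (0.011) and Cd9 in Ly6Glow against NL (0.045). With upper-quartile factors, Lgals3 (-0.012) and Neu3 (-0.069) turned in Ly6Glow against NL. Of these, Adam17 and St3gal6 had been called in edgeR with TMM, and with upper-quartile factors they lost the call at 0.43 and 0.42. The medians of all genes moved too. Of the values that turned, 12 of the 15 in FPKM and the 4 others lay on the same side of the median of all genes as in edgeR. The exceptions in FPKM were Csf1r, Lgals3 and Ly6g, at -0.012, -0.032 and -0.025 relative to it. The cause was not tested.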

Other observations

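Other cell type lists gave the following values. The 8 dendritic cell markers, led by Cd74, summed to 1372 ± 120 CPM in NL, 504 ± 15.9 CPM in Ly6Ghi and 304 ± 11.5 CPM in Ly6Glow, and all 8 fell in both comparisons with NL in edgeR, against 6 and 7 in limma on log2(FPKM + 1). The 7 eosinophil, basophil and mast cell markers summed to 4.79 ± 0.456 CPM in NL, 61.9 ± 2.53 CPM in Ly6Ghi and 18.1 ± 1.59 CPM in Ly6Glow, and 7 of 7 rose in Ly6Ghi against NL in edgeR, or 5 in limma on log2(FPKM + 1). T cell markers summed to 63.1 ± 1.40 CPM in NL, 41.9 ± 0.837 CPM in Ly6Ghi and 30.1 ± 0.128 CPM in Ly6Glow, and B cell markers, in the same order of groups, to 28.5 ± 1.26, 46.8 ± 0.532 and 28.9 ± 0.993 CPM. The 7 non-classical monocyte markers summed to 1792 ± 112 CPM in NL, 1192 ± 16.3 CPM in Ly6Ghi and 1501 ± 27.2 CPM in Ly6Glow, and the platelet and erythroid markers with values to between 24.1 and 28.6 CPM in the NL libraries, 9.81 ± 1.05 CPM in Ly6Ghi and 8.71 ± 0.850 CPM in Ly6Glow.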
